A study of Homo sapiens with 4 samples.

Results

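The translation initiation factors were followed in H1299 cells, a human lung carcinoma line, as the 56 protein-coding genes whose symbol starts with EIF and a digit from 1 to 6, out of 61541 gene rows. The 81 pseudogenes and 6 non-coding genes with such symbols were left out. RNA came from cells treated with ginseng nanoparticles (2 libraries) and from cells given PBS, phosphate-buffered saline, as the control (2 libraries). The series concerns the inhibition of cancer cell migration by particles made from fresh ginseng. The study made particles from several parts of the plant, and the labels give neither the part used here nor a dose or exposure time. They do not say whether the libraries of a group came from separate cultures, so p-values here measure the spread between libraries, which may be technical. Polyadenylated RNA was counted per gene, with 22252686 to 24979081 counts on genes per library.

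The initiation factors bring the small ribosomal subunit, the initiator methionyl-tRNA and the mRNA together. In the ternary complex eIF2 carries the initiator tRNA with GTP, and eIF2B recharges it with GTP. The cap-binding protein eIF4E, the scaffold eIF4G and the helicase eIF4A select the mRNA, eIF3 holds it to the small subunit, eIF1, eIF1A and eIF5 read the start codon, and eIF5B joins the large subunit. Cells slow the process through 4 kinases that phosphorylate eIF2 and through 4E-binding proteins that hold eIF4E. Many cancer cells carry high levels of these factors. Most of this control acts on the proteins, by phosphorylation, and the libraries measure mRNA.

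Markers of the line were checked over the same libraries. VIM, KRT8, KRT18 and AXL were abundant, and CDH1 had 1 to 8 counts per library. Of 12 markers of immune, endothelial, alveolar and red blood cells, 4 had no count in any library. The rest had at most 16 counts per library except AGER, which had 90 and 120 counts in the nanoparticle libraries and 74 and 89 in the PBS libraries. Summed over the 12 markers there were 132 and 147 counts in the nanoparticle libraries and 98 and 110 in the PBS libraries.

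None of the initiation factor genes passed the test between nanoparticle and PBS cells, and their levels lay close together in all 4 libraries. Of the 56 genes, 52 had enough counts to be tested, and none had an adjusted p under 0.05 (edgeR quasi-likelihood test, Benjamini-Hochberg adjustment over all 15778 genes tested, lowest adjusted p = 0.0863 for EIF2D). In the background of all tested genes 2.58% passed, 1.75% higher and 0.83% lower with nanoparticles. At an unadjusted p under 0.05 edgeR had 9 members, 2 higher and 7 lower, against 9.18% higher and 7.61% lower among all tested genes. DESeq2 called no member at an adjusted p under 0.05, the threshold at which it called 0.418% of all tested genes higher and 0.152% lower. It had 5 members at an unadjusted p under 0.05, against 5.97% of all tested genes. With limma-voom no member was called at an adjusted p under 0.05, where 1.71% of all tested genes were higher and 0.976% lower. It had 11 members at an unadjusted p under 0.05, against 16.9% of all tested genes. Summed over the members, the level was 14181 and 14257 CPM (counts-per-million, scaled by TMM) in nanoparticle libraries and 14462 and 14359 CPM in PBS libraries. In bulk RNA, less RNA per cell and a smaller share of cells with it cannot be told apart.

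In the edgeR fit with TMM scaling the intervals were narrow for most members. For the 35 with a mean of at least 100 CPM, the median standard error was 0.03 on the log2 scale. The 95% intervals of the 35 fold changes, not adjusted for the number of genes, ran between the lowest bound of -0.17 for EIF4A2 and the highest of 0.14 for EIF4G3, which are changes of -11.1% and 10.3%. Over the 48 members with at least 5 CPM the outermost bounds were -0.22 for EIF2D and 0.24 for EIF2AK3, changes of -14.4% and 17.8%. For these genes DESeq2 gave larger standard errors than edgeR, so bounds from it would be wider. They were 0.046 against 0.035 for EIF4A2, 0.050 against 0.035 for EIF4G3, 0.064 against 0.042 for EIF2D and 0.12 against 0.075 for EIF2AK3. Of the 52 members 32 had a fold change below 0, and over all 52 the median was -0.03 on the log2 scale, against 0.00 over all tested genes, of which 49.8% were below 0. The genes at or above 100 CPM leaned the same way, with 57.5% below 0 in the whole transcriptome and 24 of 35 below 0 among the members.

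**Figure D1:**
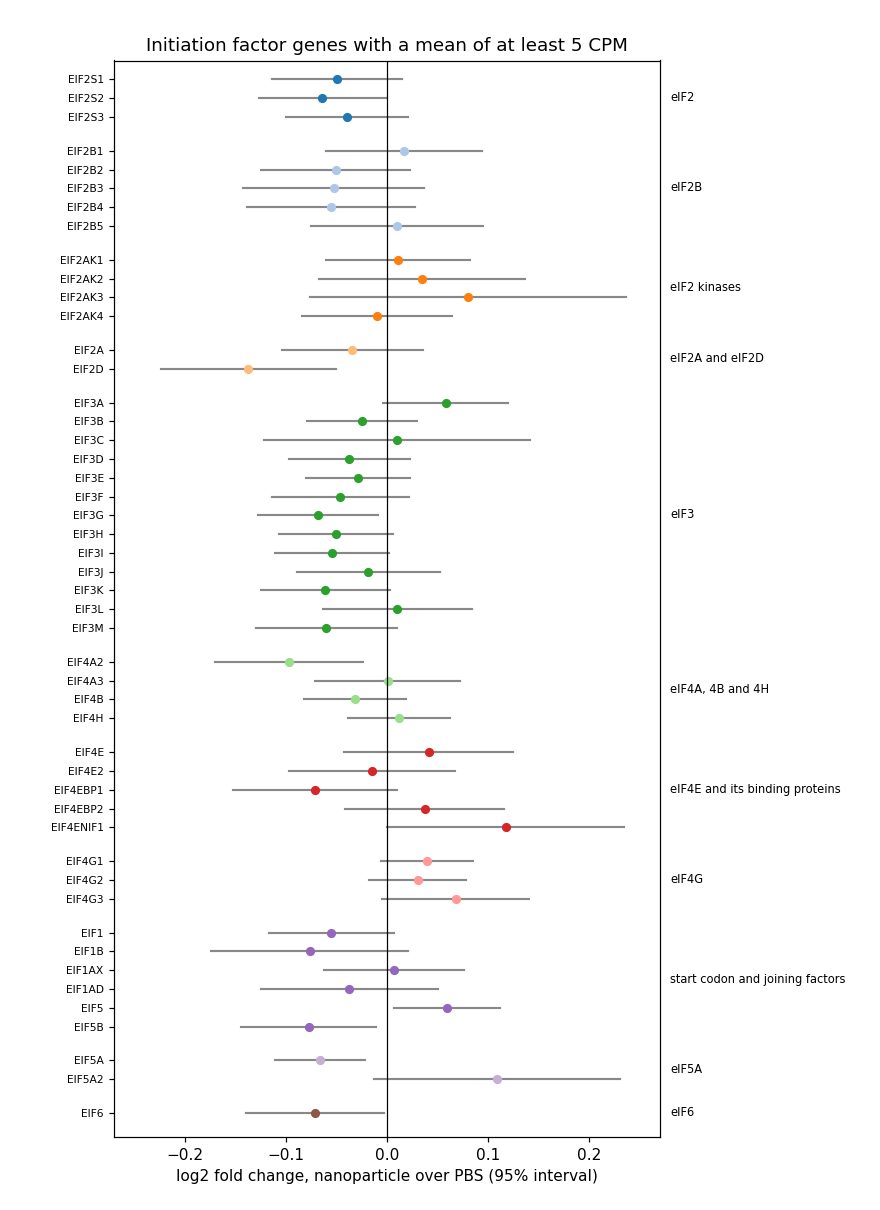
Log2 fold change of nanoparticle over PBS for the 48 initiation factor genes with a mean of at least 5 CPM, by factor (points, with 95% intervals as lines). The points lie between -0.14 for EIF2D and 0.12 for EIF4ENIF1, and 9 of the 48 intervals do not cross 0.

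The eIF2 subunits lay slightly lower in nanoparticle cells, with no call. EIF2S1, the alpha subunit that the stress kinases phosphorylate, had 309 and 318 CPM in nanoparticle libraries against 329.9 and 319 in PBS libraries (log2 -0.05, SE 0.031). EIF2S2, the beta subunit, had 362 and 373 CPM in nanoparticle libraries against 392.2 and 376 in PBS (log2 -0.06, SE 0.030, edgeR adjusted p = 0.285). EIF2S3, the gamma subunit that binds GTP and the initiator tRNA, had 343 and 351 CPM in nanoparticle libraries against 358 and 355 in PBS (log2 -0.04, SE 0.029). For these subunits both nanoparticle libraries lay below both PBS libraries, an order that 23.2% of all tested genes and 34.7% of those at or above 100 CPM also had. EIF2S3B, a retrogene copy of EIF2S3 that can share its reads, was at 2.76 and 3.73 CPM in nanoparticle libraries and 4.63 and 3.62 in PBS, and its groups overlapped. With the trend with transcript length removed the median log2 fold change of the 4 genes was -0.066, against -0.057 before. In that fit EIF2S1 was at -0.076, EIF2S2 at -0.057 and EIF2S3 at -0.037. With the trends with length and GC content both removed EIF2S1 was at -0.099 (edgeR adjusted p = 0.0698), without a call.

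The 5 subunits of eIF2B, the guanine nucleotide exchange factor of eIF2, fell on both sides of 0, with a median log2 fold change of -0.05 and none called; the median was -0.016 with the trend with transcript length removed. EIF2B4, the delta subunit, had 84.9 and 82.2 CPM in nanoparticle libraries against 87.7 and 86.0 in PBS (log2 -0.06, SE 0.040). EIF2B1, the alpha subunit, had 101 and 99.4 CPM in nanoparticle libraries against 99.2 and 99.5 in PBS, a log2 fold change of 0.02 (SE 0.037). EIF2B2, EIF2B3 and EIF2B4 were lower in both nanoparticle libraries than in either PBS library. Of all tested genes 23.2% had that order, and 34.7% of those at or above 100 CPM. The groups of EIF2B1 and EIF2B5 overlapped.

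In all 4 eIF2 kinase genes the groups overlapped, as in 8386 of all 15778 tested genes. Their log2 fold changes lay between -0.01 and 0.08 with 1 of 4 below 0. With the trend with transcript length removed 3 of 4 were below 0. EIF2AK1, the haem-regulated kinase HRI, had 190.0 and 185 CPM in nanoparticle libraries against 183 and 189 in PBS (log2 0.01, SE 0.034). EIF2AK4, the kinase GCN2 that senses uncharged tRNA, had 137 and 140.1 CPM against 142 and 137 in PBS (log2 -0.01, SE 0.036). EIF2AK2, the double-stranded RNA sensor PKR, had 68.2 and 76.2 CPM in nanoparticle libraries, which lay on either side of the PBS libraries at 70.5 and 70.5. EIF2AK3, the endoplasmic reticulum stress kinase PERK, was the least abundant of the 4, at 20.0 and 19.0 CPM against 19.0 and 17.8 in PBS (log2 0.08, SE 0.075). A list of 21 tested genes held ATF4, genes that it can drive and genes of eIF2 phosphatase subunits. Whether their mRNA responds to eIF2 phosphorylation in these cells was not tested. ASNS, on this list, had few counts, 13 and 15 in nanoparticle libraries and 13 and 10 in PBS libraries. In the edgeR test 1 gene of the list was higher and none lower. It was SLC7A11, the cystine transporter subunit and also an NRF2 target, at 14.2 and 13.8 CPM against 9.52 and 7.38 in PBS (log2 0.73, edgeR adjusted p = 0.000555). The call was lost without PBS replicate 1 (log2 0.92) and without PBS replicate 2 (log2 0.56). Those fits leave 1 PBS library, so they cannot decide the call of any single gene. It was also lost without a low-count filter (log2 0.74, edgeR adjusted p = 0.544), a fit in which no gene at all was called. With the trend with transcript length removed SLC7A11 passed (log2 0.64, edgeR adjusted p = 0.0031). At an unadjusted p under 0.05 the list of 21 had 4 higher and 2 lower genes, against 9.18% higher and 7.61% lower among all tested genes. At the adjusted threshold 1.75% of all tested genes were higher and 0.83% lower. The median log2 fold change of the list was 0.02.

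The smallest p of the family belonged to EIF2D, which encodes a factor that can place initiator tRNA on the ribosome without eIF2 and also acts in recycling. It lies on chromosome 1 from 206571292 to 206612463 in GRCh38. Its level was 72.0 and 70.8 CPM in nanoparticle libraries and 77.3 and 79.7 CPM in PBS libraries. Both nanoparticle libraries lay below both PBS libraries, an order that 23.2% of all tested genes had. The log2 fold change was -0.14 (SE 0.042, edgeR adjusted p = 0.0863), which does not pass. EIF2A, an alternative tRNA carrier, had 163 and 164 CPM in nanoparticle libraries and 169 and 166 in PBS (log2 -0.03, SE 0.033).

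Among the subunits of eIF3, the multi-subunit scaffold on the small ribosomal subunit, 11 of 14 had a fold change below 0 and none passed (median log2 -0.04). With the trend with transcript length removed 9 of 14 were below 0 and the median was -0.011. EIF3G, an RNA-binding subunit, had 362 and 366 CPM in nanoparticle libraries against 379 and 384 in PBS, a log2 fold change of -0.07 (SE 0.028, edgeR adjusted p = 0.219). EIF3K, one of the shortest, had 358 and 342 CPM in nanoparticle libraries against 368 and 363 in PBS (log2 -0.06, SE 0.030). The 12 subunits other than EIF3C and EIF3CL lay between -0.07 and 0.06. EIF3A, the largest subunit, ran the other way with 489 and 515 CPM in nanoparticle libraries against 489.8 and 475 in PBS (log2 0.06, SE 0.030), and its groups overlapped. For 8 of the 14 genes both nanoparticle libraries lay below both PBS libraries, and for none above. In the whole transcriptome 23.2% of tested genes had such an order downward and 23.7% upward, and 34.7% and 22.4% of the genes at or above 100 CPM.

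EIF3C and EIF3CL encode nearly the same protein from neighbouring copies on chromosome 16, so reads that match both can be set aside in counting. EIF3C had 672 and 706 counts in nanoparticle libraries and 605 and 619 in PBS, and EIF3CL had 76 and 60 counts in nanoparticle libraries and 68 and 63 in PBS. Per kilobase of the principal transcript EIF3C stood at 8.78 CPM in nanoparticle cells and 8.72 in PBS cells. The other subunits of the complex lay between 47.4 CPM per kilobase for EIF3M and 405 for EIF3K in nanoparticle cells, and between 49.4 and 423 in PBS cells. The level of EIF3C in these files is therefore uncertain.

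For eIF4A the counts of the main gene could not be used. EIF4A1 encodes the abundant DEAD-box helicase that unwinds mRNA for scanning, and it had 45 and 82 counts in nanoparticle libraries and 37 and 53 in PBS libraries. In GENCODE 29 (GRCh38, chromosome 17 from 7572706 to 7579005) 1586 bases of its exons lie within the exons of the readthrough gene SENP3-EIF4A1, and 2186 bases within those of the non-coding gene ENSG00000264772, both on the same strand. SENP3-EIF4A1 had 5 and 4 counts in nanoparticle libraries and 0 and 7 in PBS. Reads on exons of 2 genes are kept apart as ambiguous by HTSeq's usual modes, and 4.79% and 4.80% of reads in nanoparticle libraries and 4.79% and 4.81% in PBS libraries were so marked. Whether reads of EIF4A1 are among them was not tested, and its fold change is not interpreted.

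EIF4A2, the paralog of EIF4A1, had 178 and 188 CPM in nanoparticle libraries against 195 and 196 in PBS, a log2 fold change of -0.10 (SE 0.035, edgeR adjusted p = 0.154). EIF4A3, the related helicase of the exon junction complex, had 212 and 204 CPM in nanoparticle libraries and 212 and 203 in PBS. EIF4H, a cofactor of the helicase, was at 681 and 676 CPM in nanoparticle libraries against 674 and 673 in PBS (log2 0.01, SE 0.024). EIF4B, the other cofactor, was at 684 and 682 CPM in nanoparticle libraries against 704 and 693 in PBS (log2 -0.03, SE 0.024). In GENCODE 29 the exons of EIF4A2 overlap 5 small nucleolar RNA genes on the same strand.

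**Figure D2:**
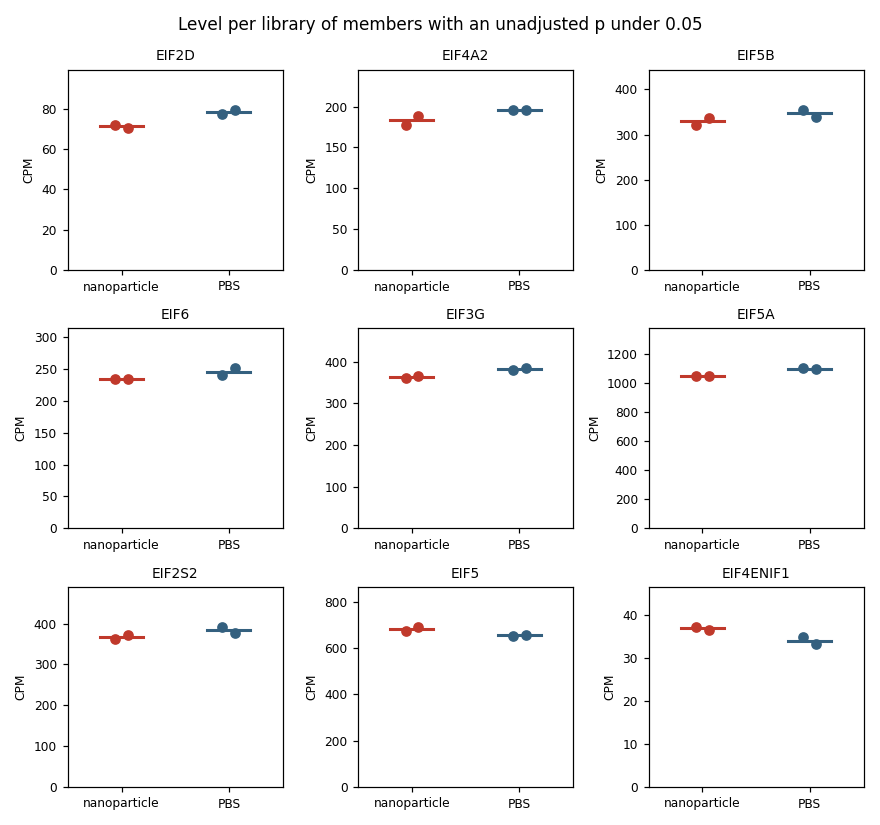
Level in CPM (y axis, from 0) of the 9 members with an unadjusted p under 0.05, in nanoparticle and PBS libraries (points, with the mean as a bar, n = 2 per group). The means of EIF2D, at 71.4 CPM in nanoparticle cells and 78.5 CPM in PBS cells, are the widest apart on the log2 scale. Libraries of a group also differ for some members. EIF4A2 had 178 and 188 CPM in nanoparticle libraries, and EIF5B had 355 and 339 CPM in PBS libraries.

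The 3 genes of the scaffold eIF4G lay higher in nanoparticle libraries, with no call. EIF4G1, which joins eIF4E, eIF4A and eIF3, had 1043 and 1039.9 CPM in nanoparticle libraries against 1006 and 1020.2 in PBS (log2 0.04, SE 0.022, edgeR adjusted p = 0.387). EIF4G2, also called DAP5, which lacks the eIF4E site, had 872 and 875 CPM in nanoparticle libraries against 848 and 864 in PBS (log2 0.03, SE 0.023). EIF4G3 had 138 and 139 CPM in nanoparticle libraries against 129.8 and 134 in PBS (log2 0.07, SE 0.035). In each of the 3 both nanoparticle libraries lay above both PBS libraries, as for 23.7% of all tested genes and 22.4% of those at or above 100 CPM. With the trend of counts with transcript length removed the log2 fold changes were -0.0013 for EIF4G1, 0.011 for EIF4G2 and 0.023 for EIF4G3.

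EIF4E, the cap-binding protein, had 84.6 and 84.7 CPM in nanoparticle libraries against 83.7 and 80.9 in PBS (log2 0.04, SE 0.040, 95% interval -0.04 to 0.12). EIF4E2, a weaker cap binder linked to repression, had 144 and 149 CPM in nanoparticle libraries, within the PBS libraries at 154 and 142 (log2 -0.01, SE 0.039). The 4E-binding proteins hold eIF4E until mTORC1 phosphorylates them. EIF4EBP1 had 116 and 111 CPM in nanoparticle libraries against 123 and 116 in PBS (log2 -0.07, SE 0.039), and EIF4EBP2 had 124 and 123 CPM in nanoparticle libraries against 116 and 124 in PBS (log2 0.04, SE 0.038). Neither paralog passed, and EIF4EBP2 overlapped between groups. EIF4ENIF1, which encodes the eIF4E transporter 4E-T, had the highest fold change of the members at or above 5 CPM, with 37.4 and 36.5 CPM in nanoparticle libraries against 34.9 and 33.3 in PBS (log2 0.12, SE 0.056, edgeR adjusted p = 0.297). The germline form EIF4E1B had no count in any library, which allows up to 0.135 CPM at the lowest depth. EIF4E3 and EIF4EBP3 were below 1 CPM in all 4. However, 507 exon bases of EIF4EBP3 overlap those of ANKHD1-EIF4EBP3 on the same strand. For EIF4E3, 738 bases overlap another protein-coding gene on its strand. Reads on such shared exons can be set aside in counting, which was not tested here. The levels of EIF4E3 and EIF4EBP3 are therefore uncertain.

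Promoter windows in RefSeq (GRCh38.p14, from 250 bases before to 50 after a start) were searched for the E-box CACGTG, the site of MYC and related factors and a palindrome that reads the same on both strands. It was present in 12 of 46 members with a window, 26.1%, against 8.77% of all genes with a window. Of the tested genes with a window 12.4% had it, and of the tested members 11 had a match and 32 had none. Counted per window rather than per gene, 7.26% of all windows had it. Of the 12 genes 11 were tested and none was called, and their log2 fold changes lay between -0.08 and 0.11 with 6 above 0 and 5 below. A match describes these letters only. The 3 members with 2 matches are printed 5′ to 3′ because they include the cap-binding protein and its main scaffold, with the E-boxes in capitals and the rest in lower case. The windows are chr4:98929084-98929383 on the minus strand for EIF4E, chr3:184314356-184314655 on the plus strand for EIF4G1 and chr3:170908588-170908887 on the minus strand for EIF5A2.
EIF4E: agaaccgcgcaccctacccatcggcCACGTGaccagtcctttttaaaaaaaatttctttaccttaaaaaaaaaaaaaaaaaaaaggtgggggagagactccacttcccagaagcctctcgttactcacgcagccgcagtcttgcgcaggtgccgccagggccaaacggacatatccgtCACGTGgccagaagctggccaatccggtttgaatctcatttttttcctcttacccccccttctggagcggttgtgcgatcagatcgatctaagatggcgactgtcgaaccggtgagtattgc
EIF4G1: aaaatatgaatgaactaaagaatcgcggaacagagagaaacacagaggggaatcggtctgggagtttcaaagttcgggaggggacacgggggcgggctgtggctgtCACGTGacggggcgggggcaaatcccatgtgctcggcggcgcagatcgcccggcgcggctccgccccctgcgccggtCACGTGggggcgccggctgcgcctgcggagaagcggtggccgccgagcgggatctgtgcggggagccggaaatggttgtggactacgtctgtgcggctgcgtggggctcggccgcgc
EIF5A2: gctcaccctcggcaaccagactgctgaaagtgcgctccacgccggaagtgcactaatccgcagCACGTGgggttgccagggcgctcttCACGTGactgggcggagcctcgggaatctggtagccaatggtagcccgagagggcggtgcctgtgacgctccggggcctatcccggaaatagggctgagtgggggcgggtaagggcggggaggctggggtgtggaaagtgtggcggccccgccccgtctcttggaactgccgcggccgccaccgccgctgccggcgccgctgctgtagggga
The matches begin 225 and 72 bases before the start of EIF4E, 144 and 67 before that of EIF4G1, and 187 and 162 before that of EIF5A2. All 3 genes had fold changes above 0 (log2 0.04, 0.04 and 0.11), without a call. With the trend with transcript length removed EIF4E was at -0.063, EIF4G1 at -0.0013 and EIF5A2 at 0.067. With the trends with length and GC content both removed they were at -0.079, 0.015 and 0.017 in that order. The adjusted EIF4E values rest on its principal transcript, which may not be the form most used. A relation of the E-boxes to the fold changes was not tested.

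Of the genes that act at the start codon, EIF1, which keeps the scanning ribosome open, had 372 and 363 CPM in nanoparticle libraries against 375 and 389 in PBS (log2 -0.06, SE 0.030). Its paralog EIF1B had 62.6 and 62.8 CPM in nanoparticle libraries against 63.5 and 68.7 in PBS (log2 -0.08, SE 0.047). Both paralogs lay lower in nanoparticle libraries without passing. EIF1AX, which works with eIF1, had 239 and 244 CPM in nanoparticle libraries, within the PBS libraries at 246 and 235. EIF5, the GTPase-activating protein of eIF2, had 673 and 693 CPM in nanoparticle libraries against 653 and 658 in PBS (log2 0.06, SE 0.025, edgeR adjusted p = 0.23). EIF5B, the GTPase that joins the subunits, had 322 and 337 CPM in nanoparticle libraries against 355 and 339 in PBS (log2 -0.08, SE 0.032, edgeR adjusted p = 0.218). Both nanoparticle libraries lay above both PBS libraries for EIF5 and below them for EIF5B. Of all tested genes 23.7% had the upward order and 23.2% the downward, and 22.4% and 34.7% of those at or above 100 CPM. With the trend with transcript length removed the log2 fold changes were -0.039 for EIF1, -0.021 for EIF1B, 0.013 for EIF5 and -0.12 for EIF5B.

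EIF5A encodes the factor that carries hypusine and helps the ribosome through difficult stretches. Its counts gave the highest level per length in the family, 694 CPM per kilobase in nanoparticle cells and 727 in PBS cells. EIF4A1, whose counts could not be used, and EIF3C, EIF4E3 and EIF4EBP3, whose levels are uncertain, cannot be placed in this order. EIF5A had 1048 and 1048 CPM in nanoparticle libraries against 1101 and 1095 in PBS, a log2 fold change of -0.07 (SE 0.022, edgeR adjusted p = 0.107). EIF5A2, a paralog amplified in some cancers, had 37.5 and 37.3 CPM in nanoparticle libraries against 33.1 and 36.3 in PBS (log2 0.11, SE 0.058, edgeR adjusted p = 0.364). The paralogs thus had fold changes of opposite sign, and the difference between them was not tested. EIF5AL1, a retrogene that can share reads with EIF5A, had 2.48 and 3.45 CPM in nanoparticle libraries and 3.41 and 3.44 in PBS. EIF6, which keeps the ribosomal subunits apart, had 233 and 234 CPM in nanoparticle libraries against 239.8 and 251 in PBS (log2 -0.07, SE 0.033, edgeR adjusted p = 0.272).

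**Figure D3:**
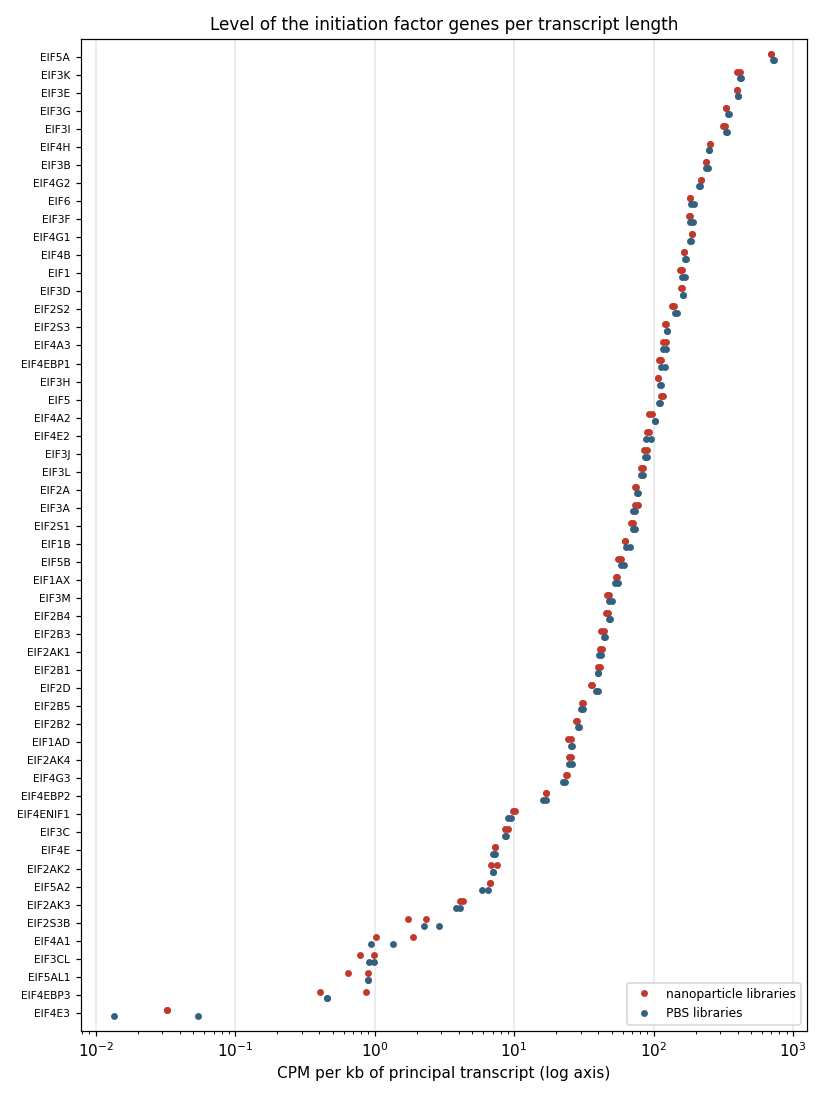
CPM per kilobase of the principal transcript (log axis) of the initiation factor genes with any count, nanoparticle libraries above PBS libraries in each row. EIF5A is at the top with 694 in nanoparticle cells and 727 in PBS cells, and the points of the 4 libraries nearly coincide for genes above 10 CPM per kilobase. The places of EIF4A1, EIF3C, EIF4E3 and EIF4EBP3 are uncertain, because their counts are.

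Levels differed far more between genes than between groups. EIF4A1, EIF3C, EIF4E3 and EIF4EBP3, whose counts are uncertain, could not be placed. Among the other members, EIF5A was followed per kilobase by EIF3K (405 in nanoparticle cells and 423 in PBS cells), EIF3E (397 and 405 in the same order), EIF3G (330.1 and 346) and EIF3I (320.3 and 333). The scaffolds EIF4G2 (218 in nanoparticle cells and 214 in PBS cells) and EIF4G1 (189 and 184) stood well above EIF4E (7.34 and 7.14), whose principal transcript is 11523 bases long and may not be the form most used in these cells, which was not tested. EIF3K overlapped EIF3E among nanoparticle libraries but not among PBS libraries, and EIF6 and EIF3F overlapped in both groups.

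Fold changes of the members went with transcript length. Spearman's rank correlation of length and log2 fold change was 0.636 over the 48 members with at least 5 CPM, and 0.414 over the 11077 genes at that level. These genes share their libraries, and the values describe them without a test. Among the shortest, 864 to 2091 bases, 2 of 16 members had a fold change above 0 (median log2 -0.06). Among the longest, 4314 to 11523 bases, 11 of 16 did (median log2 0.04). With the trend of each library with length removed, the correlation over the members was -0.131 and the medians were -0.016 in the shortest and -0.022 in the longest. Above 0 were then 5 of 16 members among the shortest and 5 of 16 among the longest. Of all 52 tested members 35 were then below 0, against 32 before, while their median log2 fold change went from -0.033 to -0.016. Of all 15778 tested genes 7960 were below 0 in that fit. For EIF3K the log2 fold change was then -0.0020, for EIF3G -0.015, for EIF5A -0.026, for EIF6 -0.024 and for EIF4E -0.063. The value of EIF4E rests on its principal transcript of 11523 bases, which may not be the form most used in these cells.

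**Figure D4:**
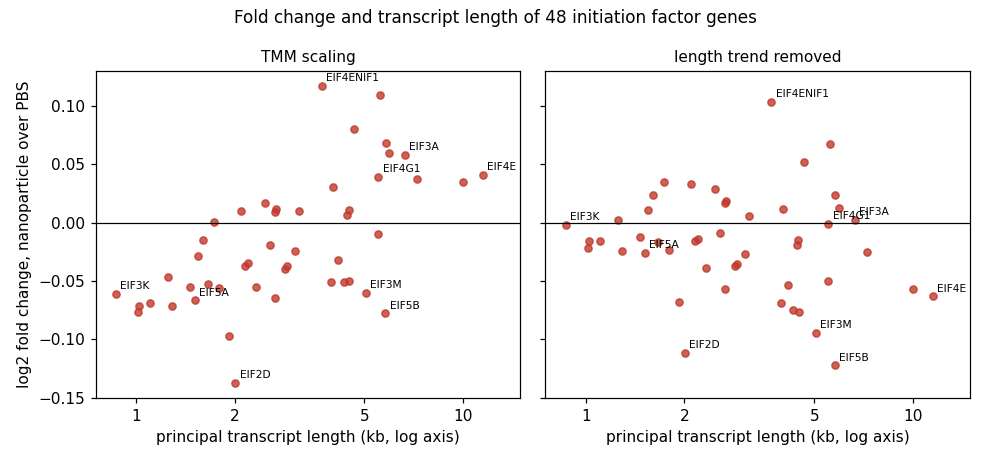
Log2 fold change of nanoparticle over PBS against principal transcript length (log axis) for the 48 members with at least 5 CPM, each point a gene, with TMM scaling at left and with the length trend removed at right. At left longer genes tend to lie higher (Spearman 0.636), with EIF5B and EIF3M among the long genes below 0, and at right the correlation is -0.131.

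EIF5B and EIF3M have long transcripts and had fold changes below 0. With the length trend removed EIF5B had a log2 fold change of -0.12 (edgeR adjusted p = 0.0541). With the length and GC trends both removed it passed (log2 -0.14, edgeR adjusted p = 0.0076), and so did EIF3M, an eIF3 subunit (log2 -0.12, edgeR adjusted p = 0.0373). EIF3M had 236 and 243 CPM in nanoparticle libraries against 256 and 243 in PBS, with the nearer pair of libraries at almost the same value. In that fit 0.887% of tested genes were lower and 0.982% higher. In the other 13 of the 14 alternatives run no member was called. Of these, the fit without a low-count filter called no gene at all, so it could not have called a member. The fits with a library left out keep only 1 library in a group and cannot decide the call of any single gene. EIF5B lies on chromosome 2 from 99337353 to 99401326, and 852 bases of its exons overlap those of REV1 on the opposite strand, as 742 bases of EIF3M overlap CCDC73. The library kit marks strand, per the labels, but the sources used here do not say whether HTSeq used it, so reads of such pairs may not be separate.

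Other genes of translation and its control gave 1 call among 106 tested, SLC7A11, against 2.58% called among all tested genes. Their median log2 fold change was 0.00. None of 24 partners of the factors passed. The largest differences there by p were in NCBP3, a nuclear cap-binding protein, with 76.0 and 77.3 CPM in nanoparticle libraries against 69.6 and 71.2 in PBS (log2 0.12, edgeR adjusted p = 0.125), and LARP4, which binds poly(A), with 157 and 165 CPM in nanoparticle libraries against 145 and 153 in PBS (log2 0.11, edgeR adjusted p = 0.13). With the length trend removed these were 0.01 and 0.06.

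Of 14 elongation genes 12 had a fold change below 0 and none passed (median log2 -0.04), and 9 were below 0 with the length trend removed. EEF1A1, which delivers aminoacyl-tRNA, had 3697 and 3635 CPM in nanoparticle libraries against 3696 and 3854 in PBS (log2 -0.04, SE 0.018, and -0.068 with the length trend removed), and the groups overlapped. EEF2K, the kinase that inhibits eEF2, had 30.5 and 29.3 CPM in nanoparticle libraries against 34.6 and 31.6 in PBS (log2 -0.15, edgeR adjusted p = 0.22). Of 11 termination and recycling genes none passed. LTN1, the ubiquitin ligase of stalled ribosomes, had 53.4 and 50.7 CPM in nanoparticle libraries against 47.1 and 45.5 in PBS (log2 0.17, edgeR adjusted p = 0.0794), and GSPT1, the release factor eRF3a, had 239.7 and 239 CPM in nanoparticle libraries against 254 and 249 in PBS (log2 -0.07, edgeR adjusted p = 0.266). With the length trend removed the log2 fold changes were 0.10 for LTN1 and -0.031 for GSPT1.

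None of 28 genes of mTORC1, the kinase complex upstream of the 4E-binding proteins, and its signalling passed. RPTOR, its substrate-binding subunit, had 99.8 and 91.2 CPM in nanoparticle libraries against 84.5 and 88.0 in PBS (log2 0.15, edgeR adjusted p = 0.0851), and the value was 0.09 with the length trend removed. RPS6, the ribosomal protein that S6 kinases phosphorylate, had 879 and 872 CPM in nanoparticle libraries against 919 and 931 in PBS (log2 -0.08, edgeR adjusted p = 0.0721), and the value was -0.034 with the length trend removed. Of 9 mitochondrial translation factors none passed. TUFM, the mitochondrial elongation factor, had 413 and 396 CPM in nanoparticle libraries against 419.6 and 424 in PBS (log2 -0.06, edgeR adjusted p = 0.287), and GFM1, another elongation factor there, had 115 and 117 CPM in nanoparticle libraries against 112 and 112 in PBS (log2 0.05, edgeR adjusted p = 0.548). With the length trend removed TUFM was at -0.038.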

How the data were processed

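Whole-number read counts per Ensembl gene were deposited by the authors, 1 table per library. The submitters' processing notes name GRCh38 and the tools HTSeq 2.0.2, STAR 2.7.6a, Picard, cutadapt 3.5 and bcl2fastq 2.20, with no role or order. The sources used here do not give the annotation release or HTSeq's strand mode; the kit was stranded and took 300 ng of RNA, per the labels. Reads given to no gene (14.3% and 13.7% in nanoparticle libraries, 14.8% and 14.5% in PBS libraries) were left out. Groups followed the treatment label, although titles of nanoparticle libraries also carry the word control. Symbols came from a gene name table; positions, types, lengths and GC from GENCODE 29 (98.2% of tested genes with a length). The principal transcript was the complete, APPRIS-ranked and best supported one.

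Genes passing filterByExpr were scaled by TMM and tested with edgeR 4.0.16 (quasi-likelihood, R 4.3.3), two-sided, at an adjusted p of 0.05; the biological coefficient of variation was 2.46%. Replicates differed beyond counting noise (chi-square per degree of freedom 2.05 for nanoparticle, 1.85 for PBS). Alternatives were RLE, upper-quartile and total-count scaling, filters of none or 50 mean counts, limma-voom (limma 3.58.1), DESeq2 1.42.0, a replicate block, leaving out each library, and offsets from robust splines (MASS 7.3.60.0.1, 4 degrees of freedom) that remove the trend with length, or with both length and GC. Named genes were, in each factor, the most abundant per length and the largest and smallest fold changes at 5 CPM or more, paralogs and near-identical copies, and in other lists those that passed or the 2 lowest p; a few further members were added after their values were seen. Members and lists were chosen with earlier results of these data known. EIF1AY and 1 marker of the line are not reported here. Tested on simulated data (nanoparticle against PBS, 15601 genes), the procedure recovered 62% of 1.2-fold and 98% of 1.5-fold changes. The changes were planted only in a sample of well-counted genes. All genes were given the same coefficient of variation and no length trend, so these shares may not hold for the real libraries. Figures used matplotlib 3.10.9.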

Additional observations from a re-analysis of the deposited data

How the results depend on the processing

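Over 14 alternatives the number of initiation factor genes called stayed at 0 in 13 and was 2, EIF5B and EIF3M, with length and GC trends removed. The members' median log2 fold change was -0.016 with the length trend removed and between -0.039 and -0.025 when each library was left out in turn. The count over all genes, 407, was 90 with DESeq2, 759 with the replicate block, 225 with the length trend removed, 0 without a low-count filter (edgeR, 2297 genes at an unadjusted p under 0.05, lowest adjusted p = 0.544), and between 0 and 200 with a library left out, with 0 both without PBS replicate 1 and without PBS replicate 2 (1562 and 1672 genes at an unadjusted p under 0.05). Upper-quartile scaling gave 223 calls upward and 190 downward, against 276 and 131. The count over other translation genes, 1, was 2 with upper-quartile scaling and limma-voom, 4 at a mean of at least 50 counts and with the replicate block, 0 without a filter, and between 0 and 2 with a library left out. Same-numbered libraries deviated with a correlation of 0.008, so the numbers were not taken to pair them, and the block called none of the members.

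Signs changed for 11 of the 44 genes followed, none of them called. With upper-quartile scaling EIF2AK1 was -0.0019, EIF4H -0.0014 and EIF3C -0.0031. With the length trend removed EIF2AK1 was -0.015, EIF4G1 -0.0013, EIF4E -0.063, EIF4E2 0.023 and EIF4EBP2 -0.025. With length and GC trends removed EIF2AK1 was -0.0093, EIF4EBP1 0.022, EIF4E -0.079, EIF4E2 0.022 and EIF4EBP2 -0.022. Both of these EIF4E values rest on the length of its principal transcript, which may not be the form most used. With a library left out the values ranged from -0.015 to 0.035 for EIF2AK1, -0.039 to 0.017 for EIF2AK4, -0.075 to 0.045 for EIF4E2, -0.0080 to 0.082 for EIF4EBP2, -0.029 to 0.048 for EIF3C, -0.28 to 0.050 for EIF3CL and -0.47 to 0.011 for EIF5AL1. The other 33 kept their sign in every alternative. With 2 libraries per group, depth limits the members below 5 CPM most.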

Other observations

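The 81 pseudogenes of the family together took 436 and 453 counts in nanoparticle libraries and 433 and 414 counts in PBS libraries, which are 17.5 and 18.2 CPM in nanoparticle libraries and 19.5 and 18.4 CPM in PBS libraries. The 13 pseudogenes of EIF4A1 had 58 and 57 counts in nanoparticle libraries and 67 and 58 in PBS libraries. EIF4A1 itself had fewer than these in every library except nanoparticle replicate 2, with 45 and 82 counts in nanoparticle libraries and 37 and 53 in PBS libraries. SENP3, the gene before EIF4A1 on the same strand, had 860 and 808 counts in nanoparticle libraries and 787 and 738 in PBS libraries.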
